A study of Mus musculus with 43 samples.

Results

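Homeobox and T-box genes outside the Hox clusters were followed through mouse full-grown oocytes and morulae after the loss of Polycomb components, with or without that of the histone methyltransferase MLL2. Members were chosen by name: genes with a numbered symbol in all 3 deposited tables from 14 families, among them Pax, Irx, Msx, Dlx, Lhx, Nkx, Pitx, Meis, Pbx, Emx, Otx, Alx and Tbx, with 1 oocyte gene of the Lhx family left out. This gave 81 members among 35815 gene symbols. In the first table, 2 libraries of wild-type oocytes (PRC1-WT) stand beside 2 of oocytes whose Polycomb repressive complex 1 is catalytically dead (PRC1-CD), each made from 10 pooled oocytes. In the second, 3 wild-type (WT) oocyte libraries stand beside 3 lacking both Pcgf1 and Pcgf6 (DKO) and 3 lacking Pcgf1, Pcgf6 and Mll2 (TKO, with Mll2 listed as Kmt2b). The third holds 10 WT morula libraries, 10 from Pcgf1/6 maternal knockout (matDKO) and 10 from Pcgf1/6 and Mll2 maternal knockout (matTKO). The number of oocytes or embryos per library in the last 2 tables, the age and strain of the mice, how the alleles were made and deleted, and the paternal allele of the maternal mutants are not given in the sources used here. PRC1-CD replicate 2 is titled and staged as a full-grown oocyte sample but carries embryo as its tissue, and it was kept with the oocytes. Separate animals are not named for the replicates, so the p-values cover the variation among these libraries alone, part or all of which may be technical.

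Homeobox and T-box genes encode transcription factors that bind DNA through a homeodomain or a T-box and set the identity of tissues in the embryo. In cells where they are silent, many are classic targets of Polycomb repression: PRC1 places ubiquitin on histone H2A lysine 119, with PCGF1 and PCGF6 as subunits of its variant forms, and PRC2 methylates histone H3 lysine 27. MLL2 methylates histone H3 lysine 4 and is the main such enzyme of growing oocytes.

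The labelled cell type was checked on marker genes: all 10 oocyte markers, among them Zp3 and Gdf9, had a mean of at least 1 in every oocyte group. All 7 pluripotency markers did in every morula group. At a limma adjusted p under 0.05, 0 of the 10 oocyte markers changed in PRC1-CD. Against WT, 2 were lower in DKO and 4 in TKO, with 0 higher in each. Against DKO, 4 were lower and 1 higher in TKO. Pcgf1 fell from 1108 ± 39.9 RPKM in WT oocytes to 12.3 ± 1.47 in DKO and 12.2 ± 1.52 in TKO, Pcgf6 from 154 ± 5.65 to 57.1 ± 2.77 and 72.2 ± 9.86, and Kmt2b from 4.85 ± 0.38 to 1.14 ± 0.15 in TKO (SD, n = 3). Oocyte values are RPKM, which divide reads by gene length and by the library's total, and morula values are TPM, scaled to transcript length and a fixed total, so levels can be compared between genes but are set side by side across tables only as levels normalised separately. The sequencing depth is unknown. In 4 morula libraries (matDKO 8 and 9, matTKO 8 and 9) the median correlation with the other morulae was 0.869 to 0.897, against 0.910 to 0.951 in the other 26. A tissue sample with fewer cells of a type cannot be told apart from one with less RNA per cell. The library chemistry does not mark the strand, so reads of overlapping genes on opposite strands cannot be told apart.

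For 55 of the 81 members the RefSeq promoter table (GRCm38.p6) holds the sequence around a gene start. Below are the 250 bases upstream of that start for 3 members higher in all 3 mutant oocyte groups (Irx2, Lhx2, Nkx6-2), 1 that was higher in DKO oocytes and low in TKO (Pax9), and the 2 T-box genes active in control oocytes (Tbx4, Tbx19). They were picked to differ in CpG density, so they do not stand for the groups they come from. Lhx2 and Nkx6-2 were also at or above 1 in both control oocyte groups. Unmethylated CpG is known to be bound by a subunit of PCGF1-containing PRC1 and by MLL2. Capitals mark each CpG, and all are written 5′ to 3′ on the gene's own strand.
Irx2 (chr13:72628570-72628819, plus strand): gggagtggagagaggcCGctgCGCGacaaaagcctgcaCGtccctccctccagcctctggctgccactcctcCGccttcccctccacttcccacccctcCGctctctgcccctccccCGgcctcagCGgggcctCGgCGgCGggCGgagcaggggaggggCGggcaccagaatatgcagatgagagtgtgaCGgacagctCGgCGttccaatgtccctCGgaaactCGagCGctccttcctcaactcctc
Lhx2 (chr2:38339031-38339280, plus strand): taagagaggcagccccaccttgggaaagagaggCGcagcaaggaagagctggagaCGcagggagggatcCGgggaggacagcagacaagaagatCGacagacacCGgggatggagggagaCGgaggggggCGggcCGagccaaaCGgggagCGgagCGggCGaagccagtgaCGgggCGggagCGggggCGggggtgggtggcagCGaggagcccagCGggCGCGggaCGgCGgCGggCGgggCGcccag
Nkx6-2 (chr7:139582798-139583047, minus strand): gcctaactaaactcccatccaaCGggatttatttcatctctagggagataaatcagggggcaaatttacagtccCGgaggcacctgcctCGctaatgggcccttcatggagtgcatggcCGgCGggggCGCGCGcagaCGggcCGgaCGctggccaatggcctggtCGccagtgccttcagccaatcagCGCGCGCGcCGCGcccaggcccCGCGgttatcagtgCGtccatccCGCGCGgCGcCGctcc
Pax9 (chr12:56695221-56695470, plus strand): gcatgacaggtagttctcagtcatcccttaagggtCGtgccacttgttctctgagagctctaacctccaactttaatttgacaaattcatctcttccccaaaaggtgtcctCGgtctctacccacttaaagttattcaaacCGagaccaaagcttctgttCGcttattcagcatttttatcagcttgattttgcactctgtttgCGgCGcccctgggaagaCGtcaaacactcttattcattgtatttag
Tbx4 (chr11:85896515-85896764, plus strand): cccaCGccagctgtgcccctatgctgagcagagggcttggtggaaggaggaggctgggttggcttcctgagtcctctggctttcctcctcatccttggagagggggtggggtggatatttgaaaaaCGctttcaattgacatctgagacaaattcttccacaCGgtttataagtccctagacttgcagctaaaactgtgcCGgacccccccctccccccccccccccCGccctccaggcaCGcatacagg
Tbx19 (chr1:165160774-165161023, minus strand): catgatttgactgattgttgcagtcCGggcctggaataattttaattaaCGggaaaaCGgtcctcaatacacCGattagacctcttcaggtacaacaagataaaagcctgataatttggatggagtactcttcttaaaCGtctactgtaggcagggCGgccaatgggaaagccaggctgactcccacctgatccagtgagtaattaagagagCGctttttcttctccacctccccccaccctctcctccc
Irx2, Lhx2 and Nkx6-2 hold 19, 25 and 26 CpG in these 250 bases, and Pax9, Tbx4 and Tbx19 hold 7, 6 and 7. The ratio of CpG observed to that expected from base composition was 0.67 in Irx2, 0.89 in Lhx2, 0.98 in Nkx6-2, 0.62 in Pax9, 0.28 in Tbx4 and 0.50 in Tbx19. Over the table's full windows of 300 bases, the 55 members had a median ratio of 0.71 and a median G+C share of 61.3%, where 27025 genes of the table had 0.39 and 52.7%. The median ratio was 0.70 in the 9 matched members that were higher in a mutant oocyte group and below 1 in a control, and 0.84 in the 8 matched members at or above 1 in both control oocyte groups. It was 0.70 in the remaining 38. On either strand, the E-box letters CACGTG were found in 7.27% of member windows and in 7.24% of the windows of all genes. The E2F core, TTCCCGC, was in 1.82% of member windows beside 4.66% of all. A TATA box, searched as TATAAA, was in 10.9% of member windows beside 14.2% of all. These are descriptions of the windows, and the start used in oocytes may be another one. The windows of Irx2, Pax9 and Tbx4 lie inside the annotated genes, which begin at 72624430, 56691693 and 85886367.

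Most members were at low levels. A mean of at least 1 was reached in some group by 34 of the 81, while 32 stayed below 1 in every library and 3 (Nkx2-1, Nkx2-6 and Tbx22) were listed at 0 in all 43. Control oocytes had 12 members at or above 1 in the first table, against 32.8% of all genes, and 11 in the second, against 31.9%. In PRC1-CD oocytes the number was 25 (all genes, 36.1%), in DKO 19 (33.5%) and in TKO 15 (33.0%). Each morula group had 14, beside 34.1% of all genes in WT, 34.0% in matDKO and 34.3% in matTKO. By library, the number at or above 1 was 12 in both PRC1-WT libraries and 23 and 26 in PRC1-CD, 11 to 12 in WT oocytes, 17 to 18 in DKO and 15 to 17 in TKO. It overlapped between morula groups, with 11 to 19 in WT, 8 to 17 in matDKO and 10 to 19 in matTKO. Members near the limit were Alx1 (1.26) and Pax2 (0.94) in PRC1-WT, Nkx1-1 (1.21, above) in PRC1-CD, Nkx6-2 (1.58) and Emx2 (0.97) in WT, Alx1 (0.93, below) in DKO, and Pbx3 (1.12) and Tbx3 (0.93) in TKO.

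**Figure D1:**
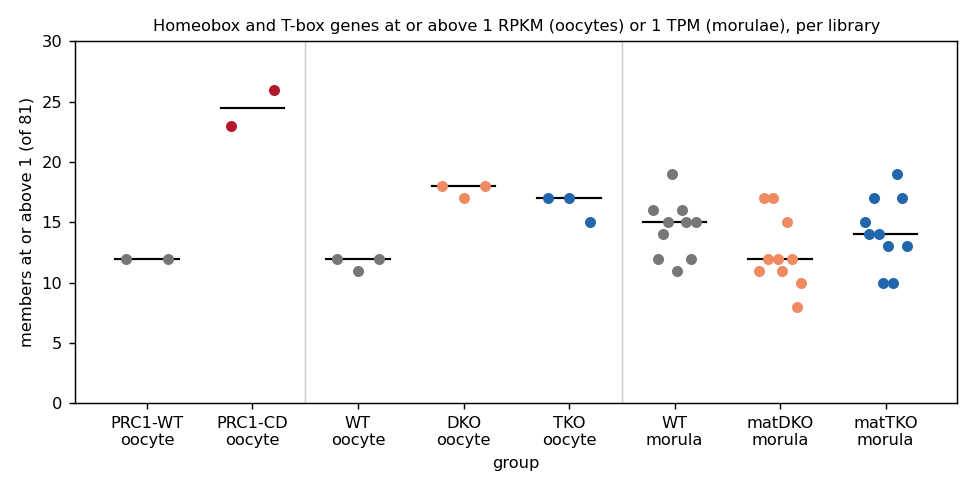
Number of members at or above 1 (of 81) in each library (points), with the group median (line), for the 5 oocyte groups in RPKM and the 3 morula groups in TPM. PRC1-CD libraries reach 23 and 26 against 12 in both PRC1-WT libraries, DKO and TKO libraries lie at 15 to 18 against 11 to 12 in WT, and the morula groups overlap.

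The families differed in how many members reached a mean of 1. None of the 6 Dlx genes, which pattern jaw, limb and forebrain, did so in any group. Of the 9 Pax genes, 0 reached 1 in either control, 3 in PRC1-CD (Pax3, Pax6, Pax9), 2 in DKO (Pax6, Pax9), 1 in TKO (Pax6) and 0 in any morula group. Of the 6 Irx genes 2 reached it in oocytes (Irx1 and Irx2) and 0 in morulae. Among the 7 Lhx genes the count was 1 in controls and 4 in PRC1-CD (Lhx2, Lhx5, Lhx6, Lhx9). In the Tbx family, Tbx4 and Tbx19 were the only ones of 13 at or above 1 in each of the 5 oocyte groups, and Tbx3, Tbx15, Tbx18 and Tbx20 the only ones in each of the 3 morula groups. Of 14 Nkx genes, 2 reached 1 in oocytes and 3 in morulae. Pbx genes, whose products pair with Hox and Meis proteins on DNA, had Pbx2, Pbx3 and Pbx4 at or above 1 in all 3 control groups.

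Control oocytes carried a few members at higher levels. Meis2, a partner of Hox and Pbx proteins, stood far above the rest at 235 and 251 RPKM in PRC1-WT and 178, 209 and 227 RPKM in WT. Tbx4, a hindlimb and lung regulator, followed at 32.7 and 38.9 RPKM in PRC1-WT and 27.4, 29.8 and 30.7 in WT, and Tbx19, which drives the corticotroph lineage of the pituitary, at 6.58 and 8.09, and 6.64, 7.77 and 8.60. The ranges of these 3 genes did not overlap within a table. Below them, Emx1, Pbx4 and Pbx2 lay close together in WT at 3.72 ± 0.98, 3.16 ± 0.43 and 2.91 ± 0.11 RPKM (SD, n = 3), within the spread of Emx1. In PRC1-WT, Emx2 (2.29 and 5.56), Pbx4 (2.90 and 4.32) and Emx1 (3.46 and 3.66) overlapped. Emx2 was at 0.72, 1.05 and 1.13 RPKM in WT, below both of its PRC1-WT values, in tables that were normalised separately.

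WT morulae carried another set. Of their 14 members at or above 1, 10 were below 1 in both control oocyte groups, and Nkx6-2, Pbx2, Pbx3 and Pbx4 reached 1 in all 3 controls. Tbx3, a factor of the pluripotency network, led at 17.9 to 43.8 TPM (median 29.3, n = 10), before Tbx20, known from heart development, at 11.8 to 24.2 (median 16.6). Nkx6-2, a neural tube factor, ranged from 4.83 to 16.3 TPM with a median of 8.03. Pbx4 (median 6.40), Pitx1 (4.98), Pbx2 (5.60), Msx2 (5.67) and Otx2 (5.21) TPM followed with wide and overlapping ranges. For Tbx3 the unstranded reads matter in oocytes, since the overlapping lncRNA Tbx3os1 averaged 31.0 to 49.2 RPKM across oocyte groups while Tbx3 itself averaged 0.19 to 0.93.

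In PRC1-CD oocytes Irx1, Irx2, Msx2 and Pax9, all at 0.07 RPKM or less in every PRC1-WT library, reached means of 6.88, 7.07, 3.05 and 2.86 RPKM, and Pax6 reached 12.9 from 0.48. Of 25 members tested, 18 were higher than in PRC1-WT, where 17.3% of all 13376 genes tested were called higher, and 1 was lower, where 5.61% were. A gene was tested when its mean reached 1 in at least 1 group, and called at a limma adjusted p under 0.05. Members silent in the control passed that filter only through the mutant, so the count among tested members leans towards rises by construction. The median change of the tested members was 1.27 on the log2(RPKM + 1) scale, beside 0.04 over all genes. Without the filter, 23 of 73 members above 0 were called higher, against 7.74% of all genes, and 1 lower, against 1.18%. The 2 PRC1-CD libraries lay above both PRC1-WT libraries for 48 of the 73 members with any signal, beside 34.6% of all genes with signal, and below them for 3, beside 17.9%.

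Pax6, the eye regulator (GRCm38.p6 chromosome 2, 105668896 to 105698410), had 0.45 and 0.52 RPKM in PRC1-WT and 13.6 and 12.2 in PRC1-CD, a log2 change of 3.22 ± 0.18 (SE, limma adjusted p = 1.3e-04). Its 2 groups lay far apart, while Elp4, which overlaps Pax6, stood at 3.03 and 3.27 RPKM on average. The linked Iroquois genes Irx1 and Irx2 (chromosome 13), patterning factors of the nervous system and heart, both rose. Irx1 went from 0 and 0.02 to 5.60 and 8.15 RPKM (2.94 ± 0.21), and Irx2 from 0.07 and 0.06 to 6.72 and 7.42 RPKM (2.92 ± 0.17). Both were near 0 in the controls, and the other 4 Irx genes stayed below a mean of 1.

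Otx1, a forebrain factor, was already present in controls at 2.57 and 1.45 RPKM and reached 17.4 and 15.4 in PRC1-CD (log2 change 2.55 ± 0.23). Adjusted p was at most 4.9e-04 for these 4 genes in limma. Msx2, an effector of BMP signalling in skull and tooth, was at 0 and 0.05 RPKM in PRC1-WT and 2.48 and 3.61 in PRC1-CD (1.97 ± 0.19, adjusted p = 7.1e-04 in limma). Further called rises were those of the cortex regulator Emx1 (2.02), the tooth and thymus regulator Pax9 (1.89), the gonad regulator Lhx9 (1.6), Emx2 (1.46), Lhx2 (1.33), Meis1 (1.27), Pax3 (1.14), Alx1 (0.85) and Nkx6-2 (0.66) on the log2 scale. Lhx6 and Nkx1-1 were called too, and both were listed at 0 in PRC1-WT, with 0.96 and 1.54 RPKM for Lhx6 and 1.22 and 1.2 for Nkx1-1 in PRC1-CD.

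Tbx4 went the other way and fell from 38.9 and 32.7 RPKM to 16.1 and 18.2 (−1.02 ± 0.17 on the log2 scale, limma adjusted p = 0.0060). The calls for Tbx4, Alx1, Emx2, Lhx6, Pax3 and Nkx6-2 were lost when single libraries were left out. The limma adjusted p of Tbx4 was 0.059 without PRC1-WT 1, 0.085 without PRC1-CD 1 and 0.062 without PRC1-CD 2, and that of Emx2 was 0.061 without PRC1-WT 2 (log2 change 0.96 in place of 1.46), 0.21 without PRC1-CD 1 and 0.17 without PRC1-CD 2. Without PRC1-WT 1 or 2 it was 0.059 and 0.062 for Lhx6 and 0.080 and 0.077 for Pax3. Without any 1 of the 4 libraries it was 0.059 to 0.089 for Alx1 and 0.091 to 0.21 for Nkx6-2. Quantile scaling also lost the calls of Alx1, Pax3 and Nkx6-2 (limma adjusted p = 0.053, 0.093 and 0.11). Median-ratio scaling lost that of Nkx6-2 (0.064). Without the filter, those of Alx1, Emx2 and Nkx6-2 were lost (limma adjusted p = 0.061, 0.091 and 0.099). The 13 calls of this comparison not named as lost held under every alternative run. Granulosa and cumulus markers moved in the same libraries: their summed level was 34.4 to 38.0 RPKM in PRC1-WT and 68.1 to 75.8 in PRC1-CD, with 4 and 7 of 16 at or above a mean of 1. Of that list, 5 of 7 tested markers were called higher and 0 lower. Fshr stood at 0.55 and 15.3 RPKM on average, Amh was listed at 0 in PRC1-CD and Foxl2 reached at most 0.10 there. Trophectoderm markers summed to 26.1 to 27.5 and 66.8 to 78.4 RPKM, with 4 of 6 tested called higher and 1 lower. Primitive endoderm markers summed to 2.20 to 2.97 and 10.5 to 10.7, with 3 of 3 higher. In both groups 1 of 10 stroma, endothelium and blood markers was at or above 1. The part of these lists in the members' rises was not tested.

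**Figure D2:**
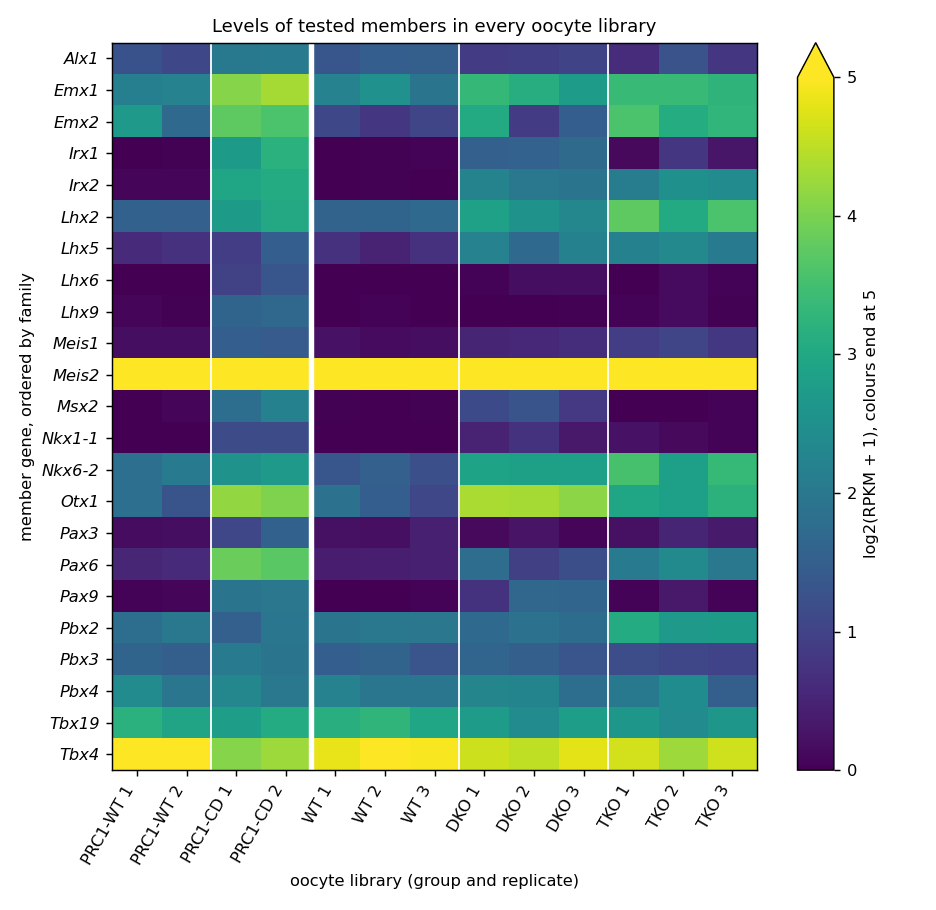
Level of 23 members tested in an oocyte table, as log2(RPKM + 1), in each of the 13 oocyte libraries, where the thick line separates tables normalised separately. Irx2 is dark in every control library and brighter in the mutants, while Meis2, at 178 to 313 RPKM, exceeds the colour range in every library.

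Oocytes without Pcgf1 and Pcgf6 also carried Otx1, Irx1, Irx2, Nkx6-2, Lhx5 and Pax9 above their WT level. In DKO oocytes 12 of 20 tested members were higher than in WT, where 17.5% of all genes tested were, and 2 were lower, where 11.3% were. The median change of the tested members was 0.87 on the log2 scale, beside 0.03 over 12873 genes. Members silent in WT, such as Irx1, Irx2, Pax9 and Msx2, passed the filter only through a mutant. The count and the median of tested members therefore lean towards rises by construction. Without the filter, 19 of 65 members were called higher, against 8.87% of all genes, and 0 lower in limma, against 4.57%, with 3 lower at an unadjusted p under 0.05. All 3 DKO libraries lay above all 3 WT libraries for 30 of 59 members with signal, beside 20.6% of all genes, and below for 4, beside 13.1%. Otx1 went from 2.63, 1.81 and 1.08 RPKM to 19.6, 19.1 and 16.6 (log2 change 2.81 ± 0.19, limma adjusted p = 6.6e-06), with no overlap between the groups.

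Irx2 went from 0, 0.02 and 0 RPKM in WT to 3.74, 3.0 and 2.80 in DKO (2.05 ± 0.13), and Irx1 from 0, 0.02 and 0.04 to 1.91, 1.97 and 2.33 (1.59 ± 0.16). Nkx6-2 stood at 1.53, 1.89 and 1.33 RPKM in WT and 6.48, 6.20 and 6.06 in DKO (1.49 ± 0.17), while the overlapping gene Inpp5a averaged 7.53 and 9.97 RPKM. Lhx5, a forebrain factor, had 0.63, 0.42 and 0.63 RPKM and then 3.63, 2.26 and 3.59 (1.40 ± 0.16). In each of these genes the DKO libraries were all above the WT ones, and limma adjusted p was at most 1.9e-04. Further called rises were Pax9 (1.31), Msx2 (1.06), Lhx2 (0.95), Pax6 (0.90) and Emx1 (0.84), with limma adjusted p from 3.2e-04 to 0.0080. Pax6 reached only 2.45, 0.93 and 1.31 RPKM in DKO, from 0.31, 0.34 and 0.35 in WT, and Msx2 1.17, 1.46 and 0.78, from 0.02, 0 and 0.02.

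Emx2 was uneven among DKO libraries, at 7.32, 0.86 and 1.80 RPKM against 1.13, 0.72 and 1.05 in WT, and was not called (0.84 ± 0.43, limma adjusted p = 0.17). Without DKO replicate 2 it was called, at 1.3 with a limma adjusted p of 0.037. Tbx19 fell from 7.77, 8.60 and 6.64 RPKM to 5.76, 4.29 and 5.98 (−0.46 ± 0.14, limma adjusted p = 0.033), and the skull regulator Alx1 from 1.53, 1.81 and 1.85 to 0.85, 0.90 and 1.04 (−0.50 ± 0.16, limma adjusted p = 0.043). The limma adjusted p of Tbx19 was 0.090 without WT 1, 0.12 without WT 2 and 0.11 without DKO 2, and that of Alx1 was 0.068 to 0.13 without any 1 of the 6 libraries. Granulosa markers summed to 31.6 to 35.2 RPKM in WT and 28.5 to 33.7 in DKO, with 3 of 7 tested called higher and 1 lower. Trophectoderm markers summed to 19.0 to 21.7 RPKM in WT and 31.3 to 36.5 in DKO (3 of 4 tested higher, 1 lower), and pluripotency markers to 35.0 to 36.9 and 44.8 to 49.1 (3 of 5 higher, 0 lower). The part of these lists in the members' changes was not tested.

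TKO oocytes, which also lack Mll2, held Irx2, Emx2, Lhx2, Nkx6-2 and Pax6 above WT, while Irx1, Pax9 and Msx2 averaged 0.35 RPKM or less. Against WT, 11 of 20 tested members were higher, where 31.2% of all genes tested were, and 4 were lower, where 20.1% were, so the falls were at the background share. The median change was 0.66 on the log2 scale, beside 0.09 over all genes. Members low in WT, such as Irx2 and Pax6, were tested only through a mutant, so this count and median also lean towards rises. Irx2 had 3.37, 4.72 and 4.33 RPKM in TKO (log2 change against WT 2.34 ± 0.13). Emx2 reached 10.9, 7.58 and 8.79 RPKM in all 3 libraries (2.35 ± 0.43). Lhx2, a regulator of eye and limb, had 12.6, 7.37 and 11.1 RPKM, from 2.01, 2.07 and 2.25 in WT (1.84 ± 0.19). Nkx6-2 had 10.7, 6.09 and 9.24 RPKM (1.88 ± 0.17), with its overlapping gene Inpp5a at 15.9 on average against 7.53 in WT, and the part of that gene's reads in Nkx6-2 was not tested. Pax6 had 3.09, 4.26 and 2.99 RPKM (1.73 ± 0.20). All 5 lay above WT in every library, with limma adjusted p of at most 0.0014. Lhx5 (1.58), Otx1 (1.52), Emx1 (1.11), Pbx2 (0.86) and Meis2 (0.47) were also called higher. Without the filter, 19 of 65 members were higher, against 15.4% of all genes, and 3 lower, against 9.50%. All 3 TKO libraries lay above all 3 WT libraries for 24 of 58 members with signal, beside 24.0% of all genes, and below for 4, beside 14.8%.

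All 4 members lower in TKO than in WT had a WT mean of at least 1. Nothing is read from this, since a gene near 0 in WT has little room to fall on this scale. Tbx19 fell to 5.28, 4.32 and 5.26 RPKM (−0.54 ± 0.14), Alx1 to 0.55, 1.42 and 0.72 (−0.55 ± 0.16), Tbx4 to 24.2, 18.3 and 23.9 (−0.40 ± 0.12) and Pbx3 to 1.26, 1.10 and 1.01 from 1.81, 2.01 and 1.49 (−0.38 ± 0.13), with limma adjusted p of 0.0087, 0.017, 0.016 and 0.028. The adjusted p of Alx1 was 0.051 to 0.057 without WT 2, WT 3, TKO 1 or TKO 3, that of Tbx4 was 0.057 without WT 2 and 0.051 without WT 3, and that of Pbx3 was 0.053 to 0.10 without WT 1, WT 2, TKO 2 or TKO 3. Irx1 (0.38, limma adjusted p = 0.078), Pax9 (0.13) and Msx2 (0.00) were not called in TKO against WT. The 3 TKO libraries of Irx1 lay above every WT library, and it was called higher with a pseudocount of 0.1 (1.66, limma adjusted p = 0.019) and without TKO 1 (0.52, 0.024). Granulosa markers summed to 35.3 to 40.3 RPKM in TKO, against 31.6 to 35.2 in WT, and stroma, endothelium and blood markers to 10.5 to 12.8 against 7.04 to 8.47. Larger shifts were those of trophectoderm markers, at 50.3 to 64.5 RPKM in TKO against 19.0 to 21.7, of pluripotency markers, at 60.5 to 77.1 against 35.0 to 36.9, and of primitive endoderm markers, at 6.30 to 7.85 against 1.29 to 1.95. In these 3 lists 3 of 4, 3 of 5 and 1 of 1 tested markers were called higher, and 1, 1 and 0 lower. Of 7 granulosa markers tested, 3 were called higher and 1 lower. The part of all these lists in the members' changes was not tested.

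**Figure D3:**
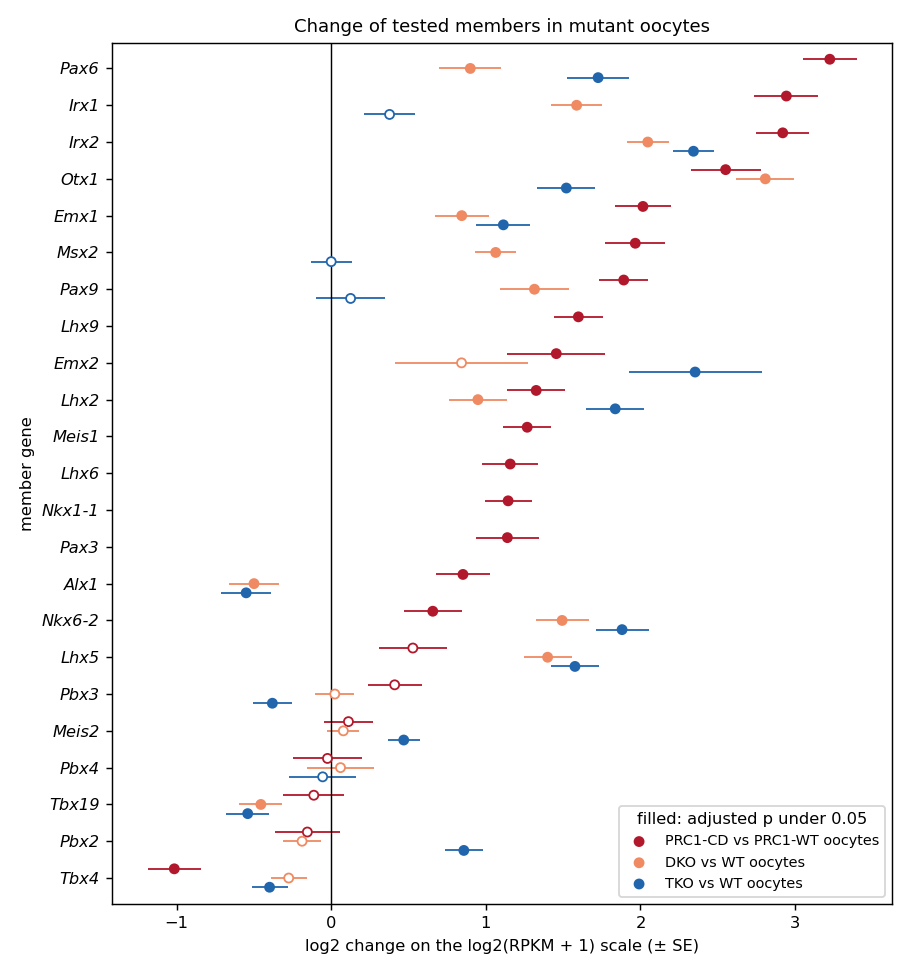
Log2 change (± SE) of 23 tested members in PRC1-CD, DKO and TKO oocytes against the wild type of its own table, on the log2(RPKM + 1) scale, where filled points have a limma adjusted p under 0.05. The DKO and TKO changes share the same 3 WT libraries, members without DKO and TKO points were below a mean of 1 in that table, and Irx2 is called higher in all 3 mutants at 2.05 to 2.92.

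Set directly against DKO, the TKO oocytes split the members in both directions. Of 20 tested members 6 were lower in TKO, where 21.8% of all genes were, and 5 were higher, where 26.8% were, so both counts lie near the background. Irx1, Pax9 and Msx2 passed the filter only through DKO, so the count of falls leans upwards by construction. Nothing particular to the members is read from it. Otx1 went from 19.6, 19.1 and 16.6 RPKM in DKO to 6.68, 6.07 and 8.23 in TKO (log2 change −1.29 ± 0.19), still above every WT library. Irx1 went from 1.91, 1.97 and 2.33 RPKM to 0.09, 0.72 and 0.24 (−1.21 ± 0.16), and Pax9 from 0.66, 2.14 and 2.10 to 0.04, 0.26 and 0.04 (−1.19 ± 0.22). Msx2 went from 1.17, 1.46 and 0.78 RPKM to 0, 0 and 0.04 (−1.06 ± 0.13). No TKO library of Msx2 exceeded 0.04 RPKM, where WT reached at most 0.02, and limma adjusted p was at most 0.0018 for these 4 genes. Pbx3 was lower too (−0.40 ± 0.13, limma adjusted p = 0.023), with an adjusted p of 0.074 without DKO 1, 0.062 without DKO 2 and 0.070 without TKO 3.

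Other members were higher in TKO than in DKO. Pbx2 had 2.26, 2.64 and 2.40 RPKM in DKO, where WT had 2.79, 3.0 and 2.94, and 7.39, 5.41 and 5.61 in TKO (1.05 ± 0.12, limma adjusted p = 1.2e-04). Lhx2 rose from 6.26, 4.95 and 4.0 RPKM to 12.6, 7.37 and 11.1 (0.89 ± 0.19), and Pax6 from 2.45, 0.93 and 1.31 to 3.09, 4.26 and 2.99 (0.83 ± 0.20). Meis2 went from 210, 202 and 235 RPKM to 313, 260 and 277 (0.39 ± 0.10). None of these groups overlapped, with limma adjusted p of 0.0032, 0.0069 and 0.010 for the last 3. Emx2 was called higher as well (1.51 ± 0.43, limma adjusted p = 0.015), but lost the call without DKO replicate 2 (0.051) or DKO replicate 3 (0.056). Irx2 (0.30 ± 0.13, limma adjusted p = 0.093) was not called, although it was without DKO 1 (limma adjusted p = 0.049) or TKO 1 (0.029). Without the filter, 8 of 65 members were higher, against 12.3% of all genes, and 12 lower, against 10.9%. All 3 TKO libraries lay above all 3 DKO libraries for 9 of 64 members with signal, beside 17.8% of all genes, and below for 13, beside 16.2%.

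**Figure D4:**
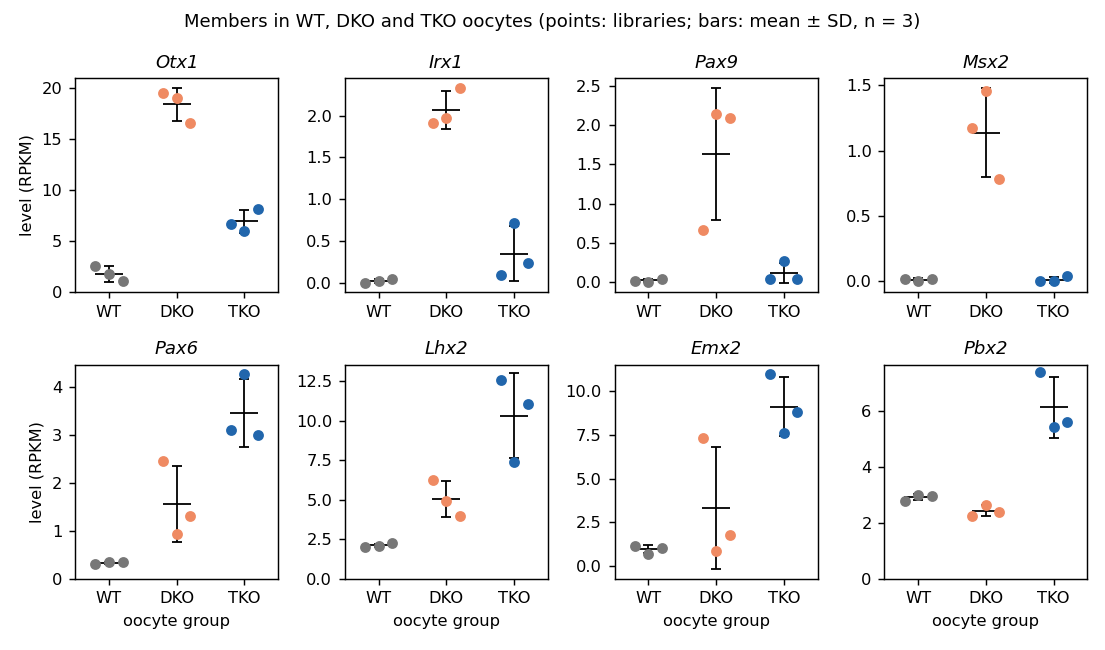
RPKM of 8 members in each WT, DKO and TKO oocyte library (points) with the group mean and SD (n = 3). Otx1, Irx1, Pax9 and Msx2 are lower in TKO than in DKO, and Pax6, Lhx2, Emx2 and Pbx2 are higher.

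The PRC1-CD and DKO comparisons use separate libraries and tables, and the DKO and TKO comparisons share their WT libraries. Of the 18 members higher in PRC1-CD, 13 were tested in the knockout table and 11 were also higher in DKO, which is 84.6% of those tested and 11 of the 12 higher there. Over all genes, 59.3% of the 1726 that were higher in PRC1-CD and tested in the knockout table were also higher in DKO. Members silent in both controls were tested in both tables only through the mutants, so nothing particular to the members is read from this count. Lhx5 was called in DKO and not in PRC1-CD (0.53 ± 0.22, limma adjusted p = 0.14, and 0.043 without PRC1-CD 1), and the difference between tables was not tested. In TKO, 8 of the 13 were also higher (61.5%), out of 11 higher there, beside 51.9% over all genes. In all, 21 members were higher in at least 1 mutant oocyte group, 13 of them below 1 in both controls. Those 13 were tested only through a mutant, and the same count over all genes was not made. Nothing particular to the members is read from either number. In morulae 16 of the 21 had a mean below 1 in every group, and Lhx2, Meis1, Msx2, Nkx6-2 and Pbx2 reached 1 in at least 1. Over all genes, 34.1% reached a mean of 1 in WT morulae, 34.0% in matDKO and 34.3% in matTKO. The count for all genes higher in a mutant oocyte group was not made, so nothing particular to the members is read here.

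Several members that lie close together on a chromosome differed in level. Pax9 lies 78.1 kb from Nkx2-9, and in DKO Pax9 averaged 1.63 RPKM and Nkx2-9 0.01. Tbx4 lies 44.4 kb from Tbx2, at 29.3 and 0 RPKM in WT oocytes. Dlx5 and Dlx6, 9.8 kb apart, were both low, at 0.42 and 0.36 RPKM in PRC1-CD.

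Other developmental regulators give the setting, from lists chosen with earlier results known. Of 47 further homeobox genes, 19 were tested in PRC1-CD with 12 higher and 0 lower (median log2 change 0.77), 14 in DKO with 7 higher and 1 lower (0.37), and the same number in TKO with 10 higher and 2 lower (1.10). Among them Lbx2 averaged 4.8 RPKM in WT oocytes and stood at 83.5 in DKO and 94.6 in TKO. Of 39 Hox genes, 9 were tested in PRC1-CD with 9 higher, 6 in DKO with 6 higher and 6 in TKO with 6 higher (medians 1.61, 1.33 and 1.39). Of 45 other regulators, 11 were tested in PRC1-CD with 9 higher and 0 lower (1.27), 7 in DKO with 2 higher and 1 lower (0.25) and 7 in TKO with 5 higher and 1 lower (1.29). As with the members, genes silent in controls entered these counts only through a mutant. Between TKO and DKO, 5 of the 14 further homeobox genes were higher and 3 lower (0.25), 2 of 6 Hox genes were higher and 2 lower (−0.01), and 5 of the 7 other regulators were higher and 1 lower (1.03).

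Morulae from mutant oocytes showed few changes in these genes. In matDKO, 1 of 16 tested members was higher than in WT, where 0.329% of all 13056 genes were, and 2 were lower, where 1.41% were. The median change of the tested members was −0.23 on the log2(TPM + 1) scale, beside −0.09 over all genes. Msx2 ranged from 0.49 to 9.75 TPM in WT (median 5.67), from 0.23 to 3.74 in matDKO (median 0.84) and from 0.73 to 4.48 in matTKO (median 2.42), n = 10 each. It was lower in matDKO (−1.37 ± 0.32, limma adjusted p = 0.022), although the ranges overlapped. Pitx1, a hindlimb regulator, ranged from 2.61 to 9.53 TPM (median 4.98) in WT and from 0.95 to 4.94 (median 2.58) in matDKO (−0.88 ± 0.23, limma adjusted p = 0.039). Meis1, known from blood formation, went the other way, from 0 to 0.87 TPM (median 0.37) in WT to 0.51 to 3.01 (median 1.25) in matDKO (0.77 ± 0.21, limma adjusted p = 0.049). None of these 3 calls held under every alternative: the limma adjusted p of Msx2 was 0.053 without WT replicate 5, that of Pitx1 passed 0.05 without 14 of the 20 libraries (up to 0.092, without WT 5) and that of Meis1 without 15 (up to 0.094, without WT 7). Without the 4 morula libraries that stand apart, the counts were again 1 higher and 2 lower. Without the filter 0 of 71 members were called in limma, where 0.0619% of all genes were higher and 0.277% lower, with 1 higher and 5 lower at an unadjusted p under 0.05.

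Meis3, a further Hox cofactor, just missed the call, at 1.16 to 4.24 TPM (median 2.63) in WT and 0 to 2.46 (median 0.91) in matDKO (−0.96 ± 0.26, limma adjusted p = 0.051). It was called there without WT 9 (0.027), matDKO 1 (0.046) or matDKO 6 (0.042). In matTKO it ranged from 0 to 4.84 TPM (median 0.69; −1.02 ± 0.26, limma adjusted p = 0.063), and was called without WT 9 (0.037) or matTKO 3 (0.0067). Against WT, 0 of 16 members were called in matTKO in either direction in limma, where 0.176% of all genes were higher and 0.391% lower, and 2 were higher and 3 lower at an unadjusted p under 0.05. Without the filter 0 of 71 were called in limma, beside 0.0328% and 0.0838% of all genes, with 6 higher and 5 lower at an unadjusted p under 0.05. The largest of these unadjusted differences on the higher side were Nkx6-2, at 8.47 to 22.6 TPM (median 15.0; 0.64 ± 0.27, adjusted p = 0.29 in limma), and Meis1 (0.60 ± 0.21, adjusted p = 0.20). Between matTKO and matDKO 0 members were called in limma, where 0.0460% of all genes were higher and 0.0230% lower, with 1 higher and 0 lower at an unadjusted p under 0.05. Without the filter 0 of 71 were called in limma, beside 0.0182% of all genes higher and 0.00% lower, with 3 higher and 0 lower at an unadjusted p under 0.05. Tbx3 did not pass the test in either maternal mutant, at a median of 34.7 TPM in matDKO (0.39 ± 0.22, limma adjusted p = 0.38) and 32.9 in matTKO (0.15 ± 0.22, limma adjusted p = 0.81). Irx2 and Pax6, which rose in mutant oocytes, stayed below a mean of 1 in all morula groups. They were thus tested there only without the filter. Irx2 was at 0 to 0.55 TPM in WT, 0 to 1.80 in matDKO and 0.03 to 3.51 in matTKO. Pax6 was at 0 to 0.07, 0 to 0.65 and 0 to 2.53 TPM. The highest matTKO values, of Irx2 in library 9 and of Pax6 in library 8, came from libraries that stand apart. The summed level of 9 trophectoderm markers was 1098 to 4668 TPM (median 2921) in WT. It was 203 to 2719 (median 1755) in matDKO and 359 to 2603 (median 1792) in matTKO, in overlapping ranges. Of 8 such markers tested, 0 were called higher or lower in either maternal mutant against WT. Of this list 8 of 9 markers were at or above 1 in each group, and its part in the differences of Msx2, Pitx1, Meis1 and Meis3 was not tested.

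**Figure D5:**
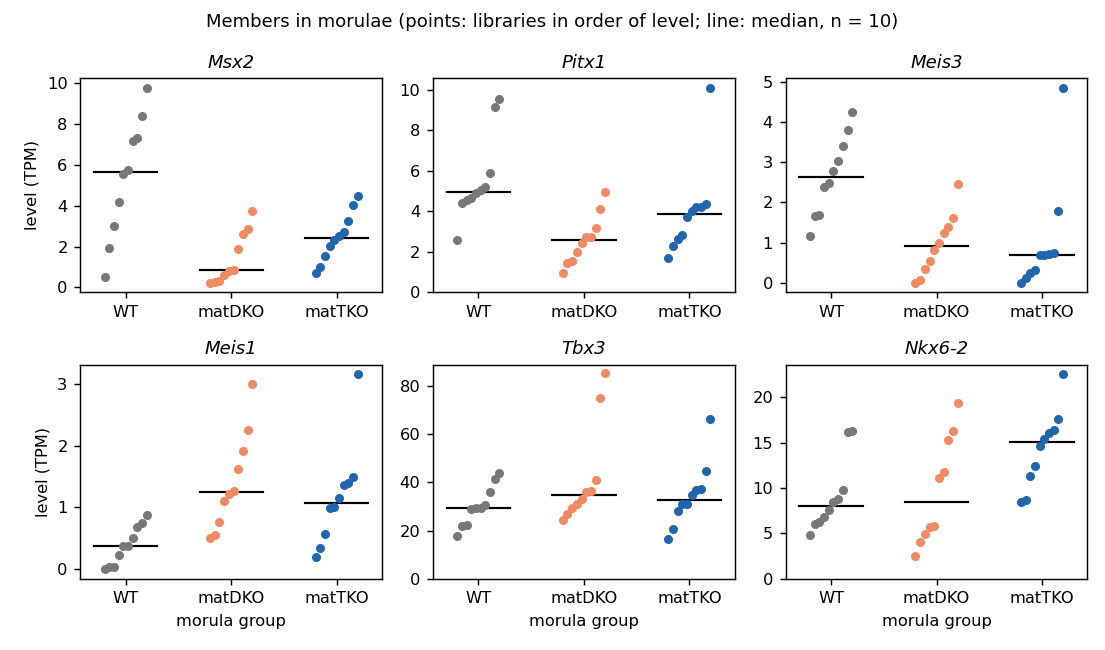
TPM of 6 members in each morula library (points, drawn from lowest to highest within a group) with the group median (line, n = 10). Msx2 and Pitx1 are lower and Meis1 higher in matDKO than in WT with overlapping ranges, and Meis3, Tbx3 and Nkx6-2 were not called in either maternal mutant.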

How the data were processed

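There were 13 oocyte and 30 morula libraries, for which SMART-Seq v4 copied the RNA and Nextera XT added adapters, per the labels' protocols. The submitters' processing notes name STAR (2.7.3 and 2.7.6), featureCounts 1.6.0, RSEM 1.3.1 and Trim Galore 0.6.4, with the builds GRCm38 and mm10, but do not tie a tool to a table. Both oocyte tables hold RPKM as deposited by the authors (library sums 622628 to 686687). The morula table is also titled RPKM, but its deposited libraries sum to 999421 to 999922, so its values were taken as TPM made by the authors, and they got the same test as the RPKM. Depth cannot be read from either unit, so no counting intervals are given. An exact 0 can be a failed estimate.

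The 27 symbols turned into dates were dropped from each oocyte table. Log2(value + 1) was fitted over the whole table with limma 3.58.1 in R 4.3.3 (eBayes with trend), for genes whose mean reached 1 in some group, with all groups of a table sharing 1 estimate of the spread. The two-sided p-values got a Benjamini-Hochberg adjustment over all genes of a comparison, and genes under 0.05 were called. This scale understates the changes of low genes. There were 7 comparisons, all within a table. The script was tested on simulated data.

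The members, gene lists and rules were chosen with earlier results of these data known. Genes named in full are the 6 called members with the largest change in each direction, the 6 highest in each control table, and Pax6, Irx2 and Msx2, besides members near a mean of 1. Some members enter the counts and medians but are not reported singly here. Alternatives were a pseudocount of 0.1, no filter, quantile and median-ratio scaling, the replicate number as a block, leaving out single libraries, and thresholds of 0.5 and 2. Leaving out morula libraries singly, or the 4 that stand apart (median correlation under 0.9), was added after seeing the data. Coordinates of all 81 members and 55 promoter windows are from RefSeq tables of GRCm38.p6. Bases that GENCODE lists as exons were kept out of the printed sequences. Protein sequences were not used here.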

Additional observations from a re-analysis of the deposited data

Results flagged for a closer look

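In morulae, 8 of 48 groups of 10 values held a library far from the rest, and all 8 were single high values. The rule's rate of about 1 in 20 holds for independent, normally distributed values. These TPM were untransformed and often low, and the groups share libraries, so the number expected by chance is unknown. No excess of outlying libraries is read from this count. In matDKO, Lhx2 was at 6.08 TPM in library 7 (next 2.78), Nkx2-3 at 2.55 in library 4 (next 1.29) and Otx2 at 15.29 in library 10 (next 6.37). Pbx3 was at 3.92 TPM in matDKO library 3 (next 2.17) and Tbx15 at 7.26 in matDKO library 1 (next 2.62). In matTKO, Meis1 was at 3.16 TPM in library 9 (next 1.49), Meis3 at 4.84 in library 3 (next 1.79) and Pitx1 at 10.11 in library 8 (next 4.35). Libraries 8 and 9 of matTKO are among the 4 that stand apart from the other morulae.

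Some members moved in opposite directions in separate comparisons, with no overlap between the oocyte groups compared, and these differences were not tested. Alx1 changed by 0.852 on the log2 scale in PRC1-CD, by −0.4995 in DKO and by −0.5503 in TKO, each against the wild type of its table. Pbx3 changed by 0.4103 in PRC1-CD, which was not called, and by −0.3809 in TKO. Msx2 changed by 1.0637 in DKO oocytes and by −1.3668 in matDKO morulae, where the ranges overlapped.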

How the results depend on the processing

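Of 62 calls over the 7 comparisons, 45 held under every alternative run: 13 of 19 in PRC1-CD, 11 of 14 in DKO, 12 of 15 in TKO against WT, 9 of 11 in TKO against DKO and 0 of 3 in matDKO. Without the filter, 19 members were higher in DKO, 19 in TKO against WT and 8 in TKO against DKO with 12 lower, while 0 were lower in DKO and 0 higher or lower in matDKO. A pseudocount of 0.1 left 1 member lower in DKO. Quantile and median-ratio scaling each left 1 lower in matDKO and gave 1 lower in matTKO (Meis3). Over all genes, the share of calls that were higher went from 75.5% to 51.1% (quantile) and 62.3% (median-ratio) in PRC1-CD, from 60.8% to 47.3% and 47.6% in DKO, from 60.8% to 51.3% and 49.2% in TKO, from 18.9% to 40.4% and 36.2% in matDKO, and from 31.1% to 43.8% (quantile) in matTKO. In PRC1-CD the median change of all genes was 0.04 as reported, −0.08 with quantile and −0.06 with median-ratio scaling. A threshold of 2 left 7 members in WT oocytes and 8 in matDKO morulae, and one of 0.5 gave 22 in WT morulae.

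Same-numbered libraries did not deviate together in every pair (correlations from −0.05 to 0.11 in the knockout oocytes, 0.09 in the PRC1 table and −0.18 to 0.58 in morulae), so the numbers were not taken as pairs. Pairs over a correlation of 0.1 numbered 7 of 10 between matTKO and matDKO, and 3 of 10 in each comparison of morulae with WT. With the replicate block, 1 member was lower in DKO, 3 in matDKO and 1 in matTKO (Meis3 added in both). The other member counts were as without it. Over all genes, the block took the matDKO calls from 43 higher and 184 lower to 122 and 485. In matTKO they went from 23 and 51 to 46 and 137. Whether same-numbered morulae share a batch was not tested. Every library correlated best with its own number in none of the comparisons with 3 or more pairs.

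With single libraries left out, 13 to 17 members were higher and 0 to 1 lower in PRC1-CD, 11 to 12 and 0 to 1 in DKO, 11 to 12 and 1 to 3 in TKO, 4 to 7 and 3 to 6 in TKO against DKO, 0 to 1 and 0 to 3 in matDKO, and 0 and 0 to 1 in matTKO. Where this left 1 library in a group, it was assumed to vary like the other groups.

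The changes that reversed sign were all uncalled, and the cause was not tested. With quantile scaling they were Pbx3 (−0.1176) and Pbx4 (−0.0387) in DKO, Alx1 in TKO against DKO (0.0544), Nkx6-2 (0.0576) and Pbx2 (0.0377) in matDKO and Otx2 in matTKO against matDKO (−0.0342). With median-ratio scaling they were Meis2 in PRC1-CD (−0.0096), Pbx3 in DKO (−0.0230), Nkx6-2 (0.0330) and Pbx2 (0.0079) in matDKO and Otx2 in matTKO against matDKO (−0.0035), which was −0.2772 with a pseudocount of 0.1. Without the 4 morula libraries that stand apart, Nkx6-2 (0.2063), Otx2 (0.0439) and Pbx2 (0.1552) in matDKO, Lhx2 (−0.1200) and Tbx3 (−0.0273) in matTKO and Otx2 between them (−0.6941) reversed. With single libraries left out, Pbx2 (−0.3669 to 0.0581), Pbx4 (−0.2483 to 0.1996) and Tbx19 (−0.2562 to 0.0308) spanned 0 in PRC1-CD, Pbx3 (−0.0516 to 0.1036), Meis2 (−0.0194 to 0.1568) and Pbx4 (−0.0178 to 0.2095) in DKO, and Msx2 (−0.0190 to 0.0092) and Pbx4 (−0.2757 to 0.1816) in TKO. In TKO against DKO, Alx1 (−0.2400 to 0.0813), Tbx4 (−0.1915 to 0.0032) and Pbx4 (−0.3357 to 0.1216) did so, and in matTKO against matDKO Meis3 (−0.2514 to 0.0458). Unknown depth limits what can be said of members near 0.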

Other observations

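Some members below a mean of 1 in WT, DKO and TKO oocytes, and so not tested there, had these levels. Tbx3 was at 0.19 to 0.31 RPKM in WT, 0.25 to 0.48 in DKO and 0.74 to 1.3 in TKO, with its overlapping lncRNA Tbx3os1 at 31.0, 44.0 and 49.2 on average. Meis1, tested in the PRC1 and morula tables but not in this one, was at 0.11 to 0.18 RPKM in WT, 0.43 to 0.57 in DKO and 0.75 to 1.05 in TKO, in 3 ranges that did not overlap. Without the filter, members not tested before added 8 calls of a higher level in PRC1-CD, 7 in DKO and 8 in TKO against WT. They added 0 of a lower level in each. Over all genes run without the filter, 7.74%, 8.87% and 15.4% were higher and 1.18%, 4.57% and 9.50% lower. Between TKO and DKO these members added 3 higher (Meis1, Dlx4 and Tbx3) and 7 lower, among them Tbx1 and Nkx1-1. Over all genes 12.3% were higher and 10.9% lower there. The share among newly tested genes was not computed, so nothing particular to the members is read from these counts.

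Lhx9, at 2.06 and 2.21 RPKM in PRC1-CD, was at 0 to 0.02 in DKO and 0.02 to 0.10 in TKO, in tables normalised separately. Pax3, at 1.10 and 1.95 RPKM in PRC1-CD, was at 0.07 to 0.20 in DKO and 0.17 to 0.43 in TKO, and WT had 0.16 to 0.35. These differences between tables were not tested.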
